A study of Mus musculus with 5 samples.

Results

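The genes described here are 42 components and regulators of the NF-κB pathway, followed over 5 kinds of cultured T helper (Th) cells. They were taken by gene symbol from a list that was chosen with earlier results of these data known. Of the 42, 37 were measured, among 22180 genes with a symbol in the whole data set. The other 5, *Nfkb1*, *Chuk*, *Irak4*, *Traf3* and *Ripk1*, had no transcript cluster carrying their symbol alone in the annotation used. Their RNA was not analysed here. Each of the 37 was represented by 1 transcript cluster, the group of probes that measures a gene on the array. The members were divided by what is known of them into 13 feedback genes (12 measured), whose own transcription is driven by NF-κB, and 29 signal components (25 measured), which carry or restrain the signal.

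NF-κB is a family of dimeric transcription factors held in the cytoplasm by inhibitors of the IκB family. Signals from the T cell receptor, from TNF receptors and from the IL-1 receptor converge on the IκB kinase complex, which marks IκB for destruction and lets the dimers enter the nucleus. There they switch on inflammatory genes together with several of their own subunits and inhibitors, so that RNA of these feedback genes is widely used as a readout of NF-κB activity, while many other steps of the pathway are regulated on proteins and leave no trace in RNA.

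Each of 5 conditions was hybridized to 1 Affymetrix Mouse Gene 2.0 ST array, read as log2 values. Naive CD4+ CD62L+ T cells came from spleens of TRP-1 mice of 6 to 8 weeks, both sexes, which carry a transgenic T cell receptor for tyrosinase-related protein-1 of melanocytes. The strain in the Methods also has a *Rag1* mutation. The T cells were polarized for 3 days with TRP-1 peptide and irradiated, T cell-depleted C57BL/6 splenocytes as antigen-presenting cells. Cells of the condition named Th9 IL-4+TGF-β+IL-1β, called combined Th9 below, were given IL-4 at 10 ng/ml, IL-1β at 10 ng/ml and TGF-β at 1 ng/ml. Th9 IL-4+IL-1β cultures, called IL-1β Th9 below, were given IL-4 with IL-1β but without TGF-β. Th9 IL-4+TGF-β cultures, called classic Th9 below, were given IL-4 with TGF-β but without IL-1β, all at these doses. Th2 cells received IL-4 (10 ng/ml) and IL-2 (100 U/ml). These 4 media also held an antibody against IFN-γ (10 µg/ml). Th1 cells received IL-12 (5 ng/ml), IL-2 (100 U/ml) and an antibody against IL-4 (10 µg/ml).

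There are no replicates, so every difference below is between 2 arrays, has no error of its own and no p-value, and cannot be compared with the spread between replicates. Array medians lay between 5.41 and 5.44. As a gauge of noise in dim signals, the differences over 1108 olfactory receptor transcripts had an SD of 0.246 to 0.299, and the 95th percentile of their values was 5.32 to 5.39 in the 5 arrays. No member was dim by that mark in its highest array. The T cell markers *Cd3e* and *Cd4* were at 12.43 to 12.71 and 11.91 to 12.40 over the 5 arrays and mark CD4+ T cells of any subset. Markers of the Th subsets were not read here. Transcripts of B cells were bright too, with *Cd79a* at 11.74 to 12.33, and the Methods name no sorting step ahead of RNA extraction. In bulk RNA, fewer cells of a type and less RNA per cell cannot be told apart. A difference of at least 1.5-fold (0.585 on the log2 scale) was counted as higher or lower.

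The κB motif, the DNA element that NF-κB dimers bind, was looked up in RefSeq promoters (GRCm38.p6, 250 bases before to 50 after each start) of the 35 members that the table holds. The 10-letter κB consensus was found on either strand in 8 of 10 feedback genes (80%), in 5 of 25 signal components (20%) and in 2581 of 27025 genes of the table (9.55%). The feedback genes with a match were *Nfkb2*, *Rel*, *Nfkbia*, *Nfkbie*, *Nfkbid*, *Bcl3*, *Tnfaip3* and *Tnip1*, and the components were *Map3k7*, *Irak1*, *Traf3*, *Bcl10* and *Cyld*. These 25 components are not the 25 measured on the arrays. They include the unmeasured *Chuk*, *Irak4*, *Traf3* and *Ripk1* and lack *Ikbkb*, *Map3k8*, *Tab1* and *Malt1*. Counting only the first promoter listed for a gene, 7 of 10 feedback genes (70%) and 8.18% of all genes had it. Since feedback genes were defined as known NF-κB targets, some of them through these very sites, this describes the members and is not separate evidence. A match is a run of letters and was not tested for binding.

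The 120 bases before the start of 6 feedback genes are shown because these genes have a whole match within that window. All 6 also carry the IL-1β pattern described below, but motif and pattern did not always go together. *Traf1* and *Birc3* carry the pattern and had no match in their promoters, while *Nfkbid* had matches and did not carry it. They span chr19:46304617-46304736 on the plus strand for *Nfkb2*, chr11:23770970-23771089 on the minus strand for *Rel*, chr12:55492648-55492767 on the minus strand for *Nfkbia*, chr17:45555580-45555699 on the plus strand for *Nfkbie*, chr10:19015411-19015530 on the minus strand for *Tnfaip3* and chr11:54962941-54963060 on the minus strand for *Tnip1*. Each is written 5′ to 3′ along the gene and ends at the base before the start, with matches of the κB consensus on either strand in capitals. Overlapping matches run together.
Nfkb2: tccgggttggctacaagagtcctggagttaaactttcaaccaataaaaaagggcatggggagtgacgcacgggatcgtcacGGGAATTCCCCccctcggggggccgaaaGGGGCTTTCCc
Rel: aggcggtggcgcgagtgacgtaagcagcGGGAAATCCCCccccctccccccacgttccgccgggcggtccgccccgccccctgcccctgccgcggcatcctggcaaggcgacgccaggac
Nfkbia: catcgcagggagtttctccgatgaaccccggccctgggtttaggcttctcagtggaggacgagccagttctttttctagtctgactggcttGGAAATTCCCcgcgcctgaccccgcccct
Nfkbie: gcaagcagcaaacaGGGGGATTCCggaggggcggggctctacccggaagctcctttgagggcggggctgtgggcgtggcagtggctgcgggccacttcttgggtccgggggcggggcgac
Tnfaip3: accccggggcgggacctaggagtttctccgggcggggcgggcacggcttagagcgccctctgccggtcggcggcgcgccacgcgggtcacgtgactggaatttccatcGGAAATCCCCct
Tnip1: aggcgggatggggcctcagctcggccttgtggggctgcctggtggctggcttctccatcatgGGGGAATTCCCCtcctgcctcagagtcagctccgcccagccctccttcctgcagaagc
In these 6 windows the match nearest to the start began 11 bases before it in *Nfkb2*, 91 in *Rel*, 29 in *Nfkbia*, 106 in *Nfkbie*, 12 in *Tnfaip3* and 56 in *Tnip1*. The *Bcl3* match lay at bases 2 to 11 after the start and so falls outside such a window.

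Over the 5 arrays, 10 of 37 members differed at least 1.5-fold between their highest and lowest array, against 16.1% of all genes, and 0 of 37 reached 2-fold, against 3.94%. Of the 10, 6 were feedback genes (*Nfkb2*, *Nfkbia*, *Nfkbie*, *Nfkbid*, *Bcl3* and *Traf1*) and 4 were signal components (*Myd88*, *Irak2*, *Peli2* and *Traf5*). The median range over the arrays was 0.57 on the log2 scale for the 12 feedback genes, 0.29 for the 25 components and 0.33 for all genes. The members thus differed in small steps, with the feedback genes spread more widely than the components.

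**Figure D1:**
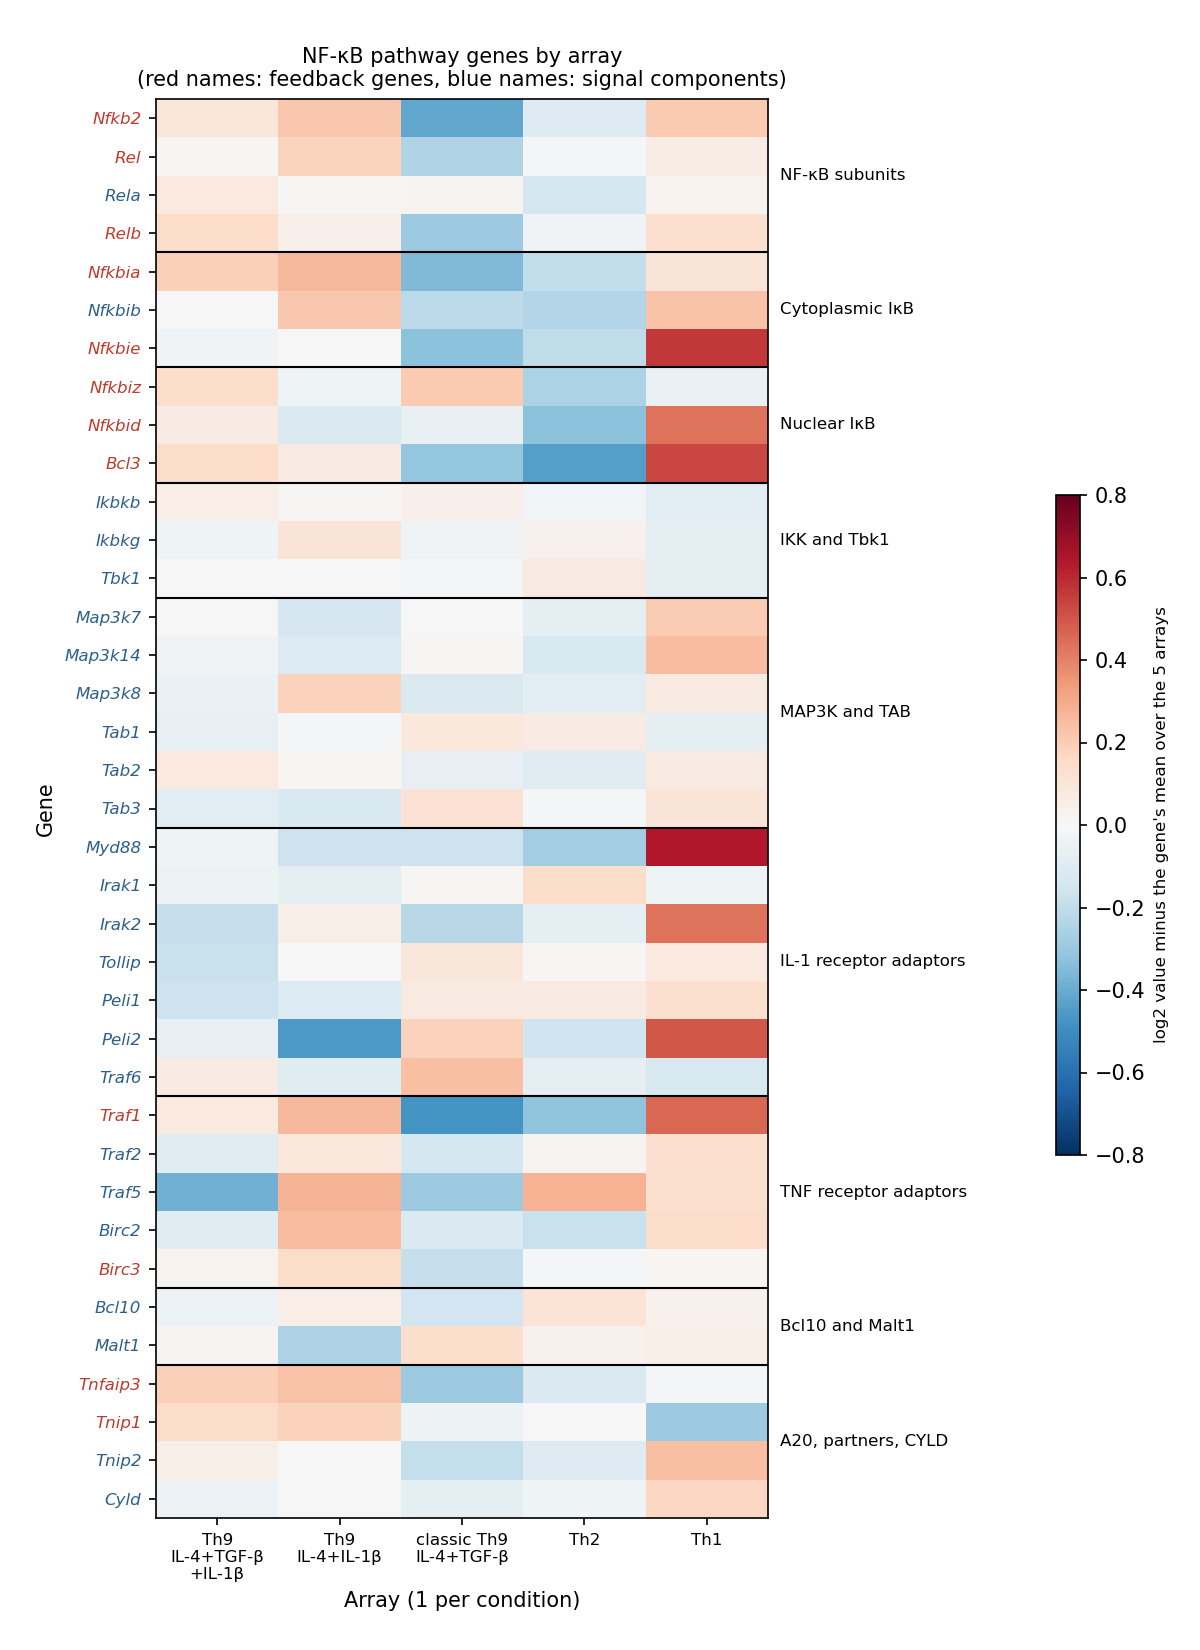
Log2 value of each of the 37 measured members minus its mean over the 5 arrays (colour), by array (columns, 1 per condition) and by role (rows). Red names are feedback genes and blue names signal components. Classic Th9 cells have the lowest value of 8 of the 12 feedback genes, and the IKK rows are nearly flat.

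Among the DNA-binding subunits, the precursor gene *Nfkb2* (p52) had log2 values of 10.31 in combined Th9, 10.42 in IL-1β Th9, 9.79 in classic Th9, 10.10 in Th2 and 10.42 in Th1 cells. *Rel* (c-Rel), the subunit most used by activated lymphocytes, was at 10.52, 10.68, 10.26, 10.50 and 10.57 in the same order of arrays, which is kept below. *Relb*, the partner of p52 in the noncanonical pathway, was at 8.89, 8.78, 8.45, 8.71 and 8.87. All 3 were lowest in classic Th9 cells, and in each both cultures with IL-1β were above classic Th9 and Th2 cells. *Rela* (p65), the ubiquitous transactivating subunit, was at 11.10, 11.03, 11.04, 10.88 and 11.05, a range of 0.22 that makes it the most even of the 4 measured subunits. The fifth subunit gene, *Nfkb1*, was not measured.

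Among the cytoplasmic inhibitors, *Nfkbia* (IκBα), the rapidly resynthesized brake of the canonical pathway, was at 10.66 in combined Th9, 10.73 in IL-1β Th9, 10.12 in classic Th9, 10.27 in Th2 and 10.57 in Th1 cells. *Nfkbie* (IκBε) was at 8.92, 8.95, 8.63, 8.75 and 9.52. Both IκB genes were thus higher in each IL-1β culture than in classic Th9 and Th2 cells, but *Nfkbie* stood highest in Th1 cells. *Nfkbib* (IκBβ), grouped with the components, was between 9.15 and 9.61, lowest in Th2 and highest in Th1 cells.

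The nuclear IκB proteins act on NF-κB already bound to DNA. *Bcl3*, a coactivator of p50 and p52 homodimers, was at 9.60 in combined Th9, 9.52 in IL-1β Th9, 9.14 in classic Th9, 9.02 in Th2 and 9.99 in Th1 cells. *Nfkbid* (IκBNS) was at 9.12, 8.93, 8.99, 8.72 and 9.49. *Bcl3* followed the IL-1β pattern and *Nfkbid* did not, since its IL-1β Th9 value lay below that of classic Th9 cells. *Nfkbiz* (IκBζ), which IL-1β induces in many cell types, was between 7.56 in Th2 and 8.02 in classic Th9 cells and did not follow the pattern either.

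In the TNF receptor and cIAP group, *Traf1*, an adaptor of TNF receptors and a classic NF-κB target, was at 9.94 in combined Th9, 10.12 in IL-1β Th9, 9.38 in classic Th9, 9.54 in Th2 and 10.32 in Th1 cells. *Traf5*, an adaptor of receptors such as OX40 and CD27, was at 6.79, 7.45, 6.89, 7.46 and 7.31. The 2 patterns differ: *Traf1* was low in the IL-4 cultures without IL-1β, and *Traf5* was low in both cultures with TGF-β. *Traf2* ranged over 0.27, and the cIAP ubiquitin ligases *Birc2* and *Birc3*, neighbouring genes on chromosome 9, over 0.43 and 0.33. Both cIAP genes were highest in IL-1β Th9 cells.

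Among the adaptors below the IL-1 and Toll-like receptors, *Myd88*, the first adaptor of these receptors, was at 10.18 in combined Th9, 10.05 in IL-1β Th9, 10.05 in classic Th9, 9.94 in Th2 and 10.86 in Th1 cells. *Irak2*, a kinase of the Myddosome, was at 7.95, 8.17, 7.91, 8.05 and 8.56. *Peli2*, a ubiquitin ligase of the Pellino family, was at 6.07, 5.67, 6.32, 5.98 and 6.63. All 3 were highest in Th1 cells, and among the IL-4 cultures *Peli2* was lowest in IL-1β Th9 cells, where it was 5.67 against a dim mark of 5.32. *Irak1*, *Tollip* and *Peli1* ranged over 0.23 to 0.29, and *Traf6*, the ubiquitin ligase that joins this branch to Tak1, over 0.37, with its highest value (10.11) in classic Th9 cells.

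In the middle of the pathway, the group of IKK genes and *Tbk1* was the most even by median range. *Ikbkb* (IKKβ), *Ikbkg* (NEMO) and *Tbk1* ranged over 0.13, 0.18 and 0.14. *Map3k7* (Tak1), *Map3k14* (NIK, the noncanonical kinase) and *Map3k8* (Tpl2) ranged over 0.30 to 0.37, and the Tak1-binding genes *Tab1*, *Tab2* and *Tab3* over 0.16 to 0.23. Of the adaptors that link the T cell receptor to IKK, *Bcl10* ranged over 0.27, and *Malt1* over 0.39 with its lowest value (11.15) in IL-1β Th9 cells. None of these 11 genes reached 1.5-fold between any 2 arrays.

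The last group holds inhibitors of signalling complexes. *Tnfaip3* (A20), the ubiquitin-editing enzyme induced by NF-κB, was at 9.49 in combined Th9, 9.53 in IL-1β Th9, 9.01 in classic Th9, 9.19 in Th2 and 9.29 in Th1 cells, and it is given in full, outside the rule for naming, because the IL-1β comparison turns on it. Its partner *Tnip1* (ABIN-1) ranged over 0.48 and was lowest in Th1 cells. Its relative *Tnip2* ranged over 0.44 and the deubiquitinase *Cyld* over 0.25, and both were highest in Th1 cells.

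**Figure D2:**
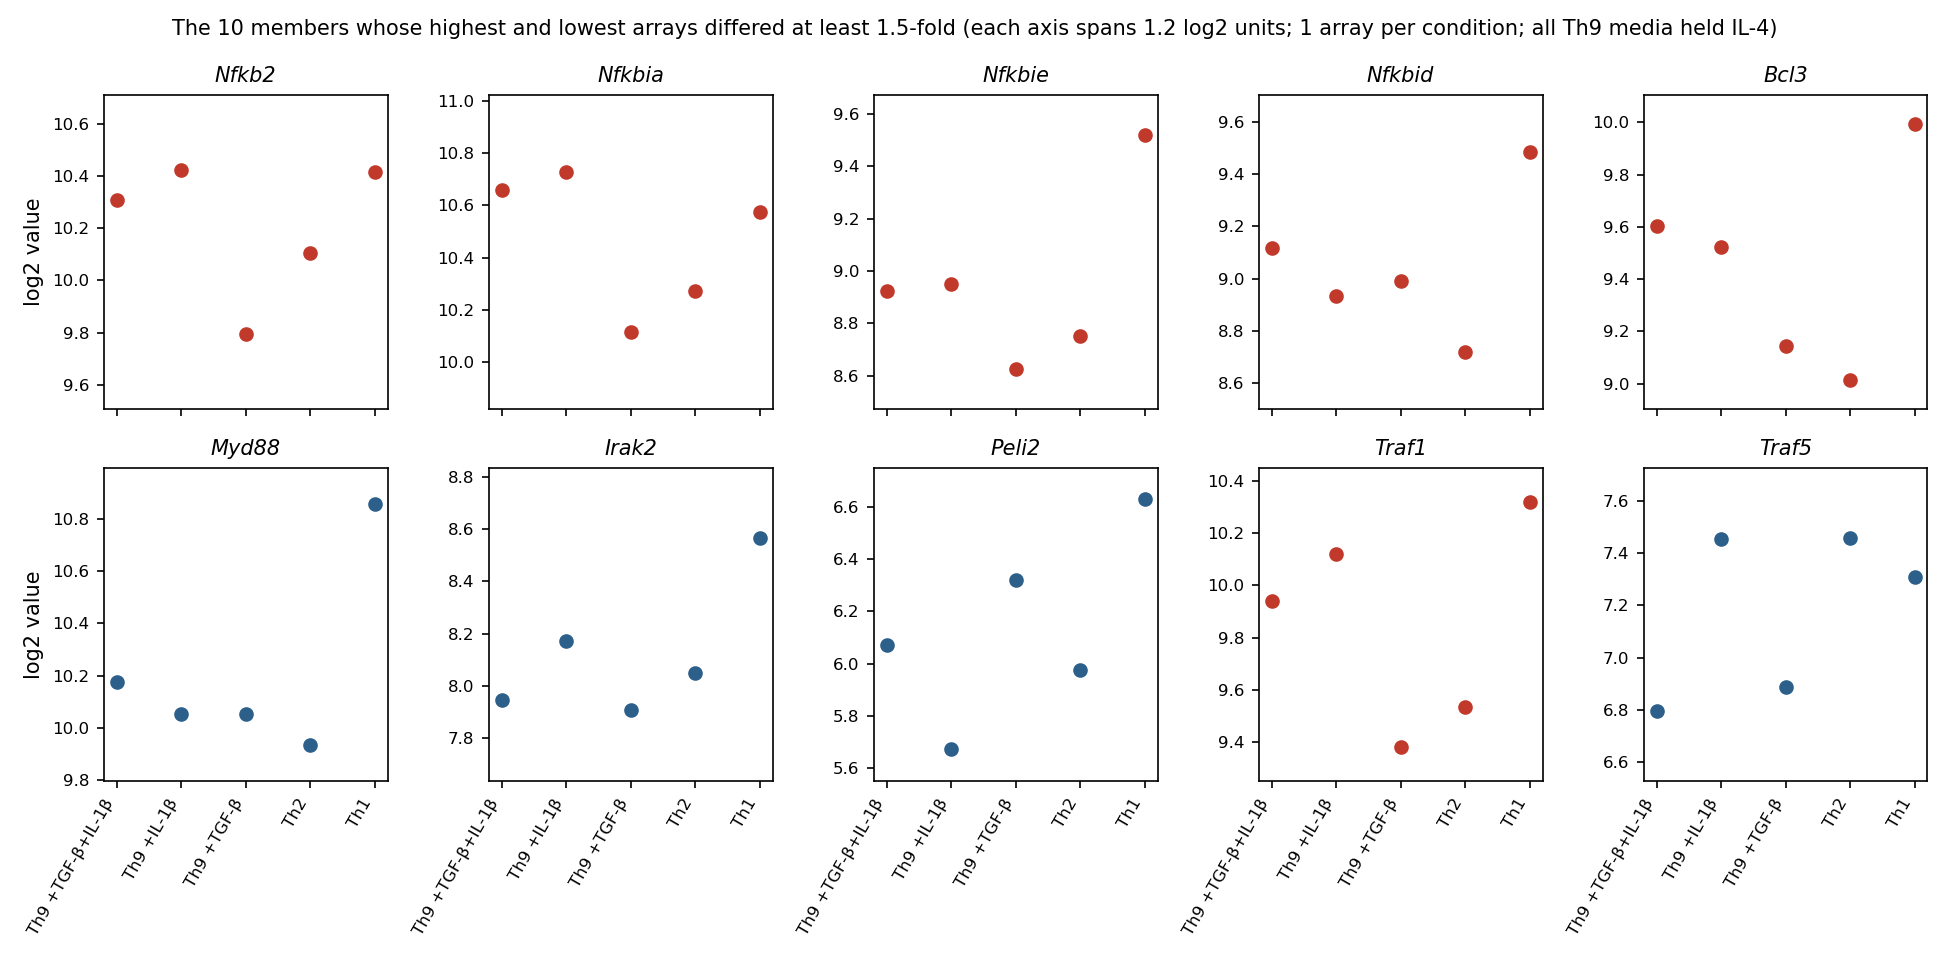
Log2 values of the 10 members that differed at least 1.5-fold between their highest and lowest array, 1 point per array, with each axis spanning 1.2 log2 units. Red points are feedback genes and blue points signal components. *Nfkb2*, *Nfkbia*, *Nfkbie*, *Bcl3* and *Traf1* dip in classic Th9 and Th2 cells, while *Traf5* dips in both cultures with TGF-β.

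The first comparison asked whether IL-1β, in IL-4 medium, went with higher RNA of the pathway. It was made without TGF-β, as IL-1β Th9 minus Th2 cells, and with TGF-β, as combined Th9 minus classic Th9 cells. These differences share no array, although all arrays were normalized together and the Th2 medium alone of these 4 held IL-2. The feedback genes were higher with IL-1β on both sides, by small amounts. Their median difference was 0.22 without TGF-β and 0.37 with it, against -0.01 for all genes on both sides. The components had a median of 0.01 on both sides, and without TGF-β its sign changed with another scaling.

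No member was higher or lower by 1.5-fold or more without TGF-β (0 of 37, against 2.39% of all genes) or with it (0 of 37, against 1.96%). By sign, all 12 measured feedback genes were above 0 without TGF-β, against 48.7% of all genes, and 11 of 12 with it, against 48%. The exception was *Nfkbiz*, at -0.07 with TGF-β. Of the 25 components, 13 were above 0 without and 14 with TGF-β, near the share of all genes. Both IL-1β cultures lay above both classic Th9 and Th2 cells in 10 of 12 feedback genes and 5 of 25 components, against 16.2% of all genes. The 10 were *Nfkb2*, *Rel*, *Relb*, *Nfkbia*, *Nfkbie*, *Bcl3*, *Traf1*, *Birc3*, *Tnfaip3* and *Tnip1*, and the 5 were *Nfkbib*, *Map3k8*, *Tab2*, *Birc2* and *Tnip2*. The reverse order held in 0 of 12 feedback genes and 6 of 25 components (*Tab1*, *Tab3*, *Irak1*, *Tollip*, *Peli1* and *Malt1*), against 18.1% of all genes.

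At a lower bar of 0.32 on the log2 scale, met on both sides, 4 of 37 members were higher with IL-1β (*Nfkbia*, *Bcl3*, *Traf1* and *Tnfaip3*), against 1.13% of all genes, and 0 of 37 were lower, against 1.19%. *Traf1* was higher by 0.58 without and 0.56 with TGF-β. *Nfkbia* was higher by 0.46 and 0.54, *Bcl3* by 0.51 and 0.46, and *Tnfaip3* by 0.34 and 0.48. These 4 genes encode an adaptor, an inhibitor, a coactivator and a deubiquitinating enzyme, all known products of NF-κB-driven transcription. By the mean of both differences, *Traf1* (0.57, or 1.48-fold) ranked 95th, *Nfkbia* (0.50, 1.41-fold) 145th, *Bcl3* (0.48, 1.40-fold) 163rd, *Nfkb2* (0.42, 1.33-fold) 277th and *Tnfaip3* (0.41, 1.33-fold) 288th among the 22180 genes. The highest component was *Nfkbib* (0.33, 1.26-fold), at rank 613.

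Some members differed between the 2 sides, which was not tested. *Relb* was higher with IL-1β by 0.44 in the presence of TGF-β and by 0.06 without it. *Birc2* was higher by 0.43 without TGF-β and by 0.02 with it. No member was at least 1.5-fold higher on one side and 1.5-fold lower on the other.

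**Figure D3:**
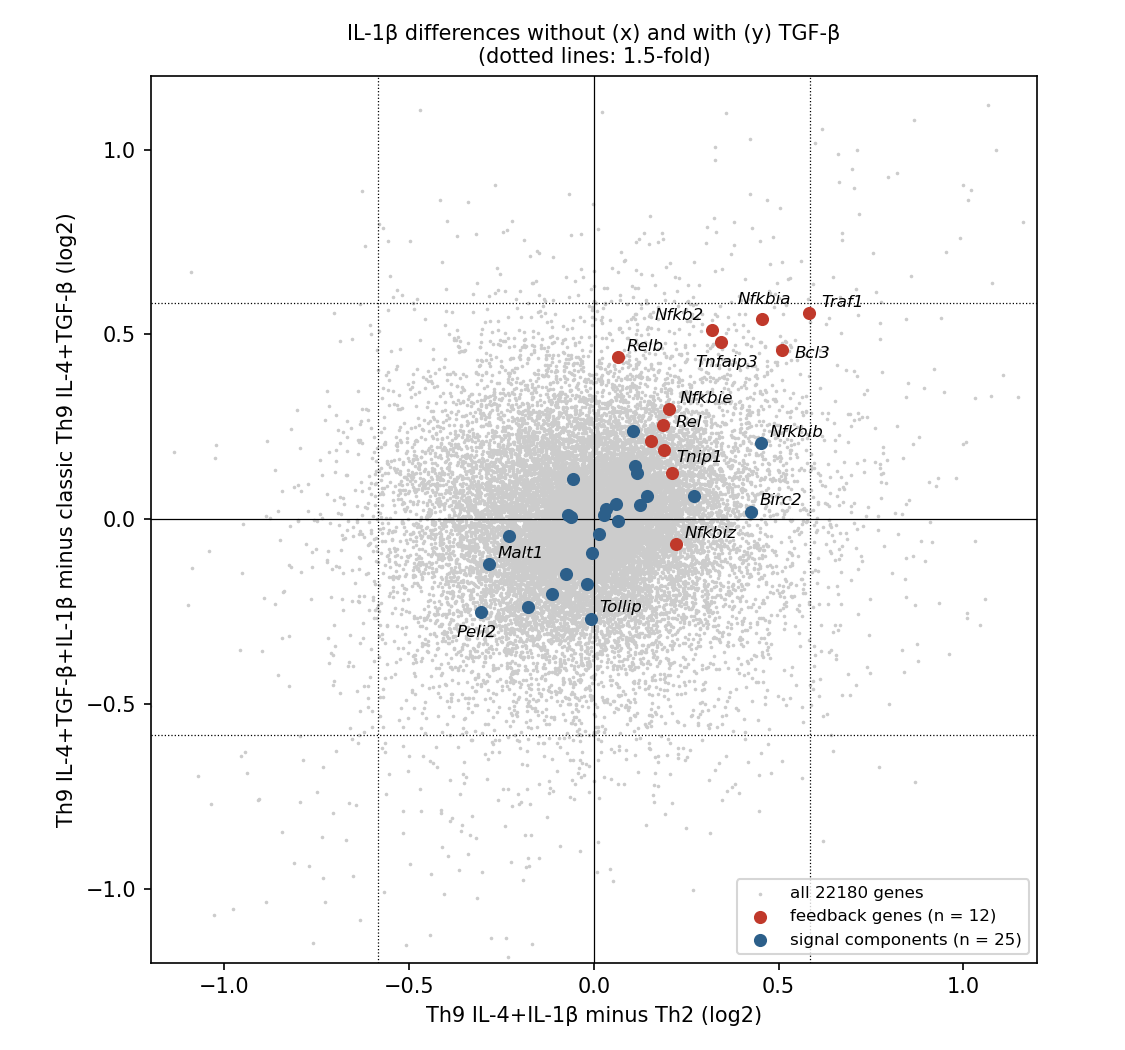
Log2 difference with IL-1β without TGF-β (x axis) and with TGF-β (y axis) for the 12 feedback genes (red), the 25 signal components (blue) and all 22180 genes (grey; 39 lie beyond the axes), with dotted lines at 1.5-fold. *Traf1*, *Nfkbia*, *Bcl3*, *Nfkb2* and *Tnfaip3* form the upper right edge of the members, and the components scatter around 0.

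The same comparisons were read in NF-κB target genes outside the members, a list of cytokines, chemokines and survival genes of which 29 of 30 were measured. This list too was chosen with earlier results of these data known, so its counts describe it and are not separate evidence. Their median was 0.22 without and 0.15 with TGF-β. On both sides 4 of 29 were at least 1.5-fold higher, *Il6*, *Csf2*, *Gadd45b* and *Zc3h12a*, against 0.216% of all genes, and 0 of 29 were lower, against 0.171%. *Zc3h12a*, which encodes the RNase Regnase-1, was at 8.70 in combined Th9, 8.74 in IL-1β Th9, 7.92 in classic Th9, 8.07 in Th2 and 8.05 in Th1 cells. *Gadd45b*, a stress-response gene, was at 9.76, 9.91, 9.10, 9.26 and 10.29. *Csf2*, the cytokine GM-CSF, was at 7.53 in IL-1β Th9 cells and at 4.05 to 5.53 in the other 4 arrays, and *Il6* lay below the dim mark in every array. With TGF-β, both *Csf2* values (5.13 in combined Th9 and 4.05 in classic Th9 cells) were below the dim mark as well, as was that of Th2 cells (4.54), so that 2 of the 4 calls rest on dim values. The 28 of 32 measured other pathway genes (receptors, further adaptors, ubiquitin ligases) had medians of -0.02 and 0.01, with 0 of 28 past 1.5-fold in either direction on either side. At 0.32 on both sides, 1 of 28 was higher, the TRAF family gene *Traf4* (0.47 without and 0.34 with TGF-β), against 1.13% of all genes.

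Markers of other cells were read beside these values. B cell genes (10 of 12 measured) had a median of -0.13 without and 0.13 with TGF-β, plasma cell genes (6 of 6) 0.24 and 0.29, myeloid and dendritic cell genes (13 of 14) 0.02 and 0.19, mast cell and basophil genes (10 of 10) -0.08 and -0.06, NK and CD8 T cell genes (6 of 7) -0.12 and -0.14, and T cell genes (9 of 12) -0.17 and -0.19. The plasma cell median was thus above 0 on both sides, like that of the feedback genes. The myeloid median was above 0 too, but without TGF-β by only 0.02, with 7 of 13 genes above 0. The part of other cells in the feedback values was not tested.

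IL-1β Th9 cells were then set directly against classic Th9 cells, the comparison of both Th9 media. It shares its arrays with the differences above and exchanges IL-1β for TGF-β in 1 step. *Traf1* was higher by 0.74, *Nfkb2* by 0.63 and *Nfkbia* by 0.61, and these were the 3 of 37 members at least 1.5-fold higher, against 2.69% of all genes. *Peli2* was the 1 of 37 lower by that much, at -0.65, against 2.34%. The median was 0.36 for feedback genes, 0.00 for components and -0.03 for all genes. *Tnfaip3* (0.52), *Rel* (0.42) and *Bcl3* (0.38) were higher by less than 1.5-fold, while *Nfkbiz* (-0.24) and *Nfkbid* (-0.06) were below 0. Among components, *Traf5* was higher by 0.57 and *Nfkbib* by 0.42, and *Malt1* (-0.39) and *Traf6* (-0.34) were lower.

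The 29 targets, chosen with these data known, had a median of 0.29. Of them 7 were at least 1.5-fold higher, against 2.69% of all genes, and 0 lower, against 2.34%. Among the 7, *Csf2*, *Il6* and *Il2* lay below the dim mark in classic Th9 cells. Of the other pathway genes, 1 of 28 was at least 1.5-fold higher (*Tirap*, a Toll-like receptor adaptor, 0.66) and 1 of 28 lower (*Prkcq*, the T cell kinase PKCθ, -0.79). In this comparison the marker lists moved more. The median was 0.54 for B cell genes (3 of 10 at least 1.5-fold higher, 1 lower), 1.24 for plasma cell genes (3 of 6 higher, 0 lower) and -0.44 for T cell genes (0 of 9 higher, 1 lower, *Lat* at -0.82). It was 0.34 for mast cell and basophil genes (2 of 10 higher, 0 lower), 0.21 for NK and CD8 T cell genes (0 of 6 either way) and 0.16 for myeloid and dendritic cell genes (3 of 13 higher, 1 lower, *Lyz2* at -1.44). *Cd3e* was at -0.29 and *Cd4* at -0.49. The part of these shifts in the member values was not tested.

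For TGF-β, the question was whether its presence went with other levels of the same genes. Classic Th9 minus Th2 cells compare it without IL-1β, and combined Th9 minus IL-1β Th9 cells with IL-1β. The pair without IL-1β differs in IL-2 as well, which the Th2 medium held and the classic Th9 medium did not. On that side TGF-β and IL-2 cannot be told apart. *Traf5* was lower with TGF-β on both sides, by -0.57 without and -0.66 with IL-1β. *Peli2* was higher on both sides, by 0.34 and 0.40. These were the only members at least 0.32 apart in the same direction on both sides (1 of 37 lower, against 2.37% of all genes, and 1 of 37 higher, against 1.44%). At 1.5-fold, 0 of 37 were higher and 0 of 37 lower without IL-1β, against 1.28% and 1.77% of all genes. With IL-1β, 0 of 37 were higher, against 1.21%, and 1 of 37, *Traf5*, was lower, against 1.79%. Over both sides *Traf5* averaged 0.653-fold, and 0.956% of all genes were lower still.

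The feedback genes had a median of -0.15 with TGF-β in the absence of IL-1β and of -0.04 in its presence, against 0.02 and 0.01 for all genes, and the value of -0.04 changed sign with another scaling. Only 3 of 12 (*Nfkbiz*, *Nfkbid* and *Bcl3*) were above 0 without IL-1β, against 54.1% of all genes, and 4 of 12 (the same 3 with *Relb*) with it, against 52.4%. *Nfkb2* was at -0.31 and -0.12, *Rel* at -0.23 and -0.17, and *Nfkbiz* at 0.46 and 0.17. Classic Th9 cells accordingly had the lowest value of the 5 arrays for 14 of 37 members, 8 of them feedback genes, against 18% of all genes. The 29 targets, chosen with these data known, had a median of -0.13 without and -0.09 with IL-1β. On both sides 2 of 29, *Ccl3* (-1.53 and -1.61) and *Ccl4* (-0.60 and -0.74), were at least 1.5-fold lower, against 0.64% of all genes. None of the 29 was higher on both sides, against 0.221%. B cell genes had a median of -0.60 without and -0.28 with IL-1β, plasma cell genes of -0.99 and -1.04, mast cell and basophil genes of -0.10 and -0.42, NK and CD8 T cell genes of -0.36 and -0.29, myeloid and dendritic cell genes of -0.14 and -0.15, and T cell genes of 0.24 and 0.19, and their part in the member values was not tested.

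**Figure D4:**
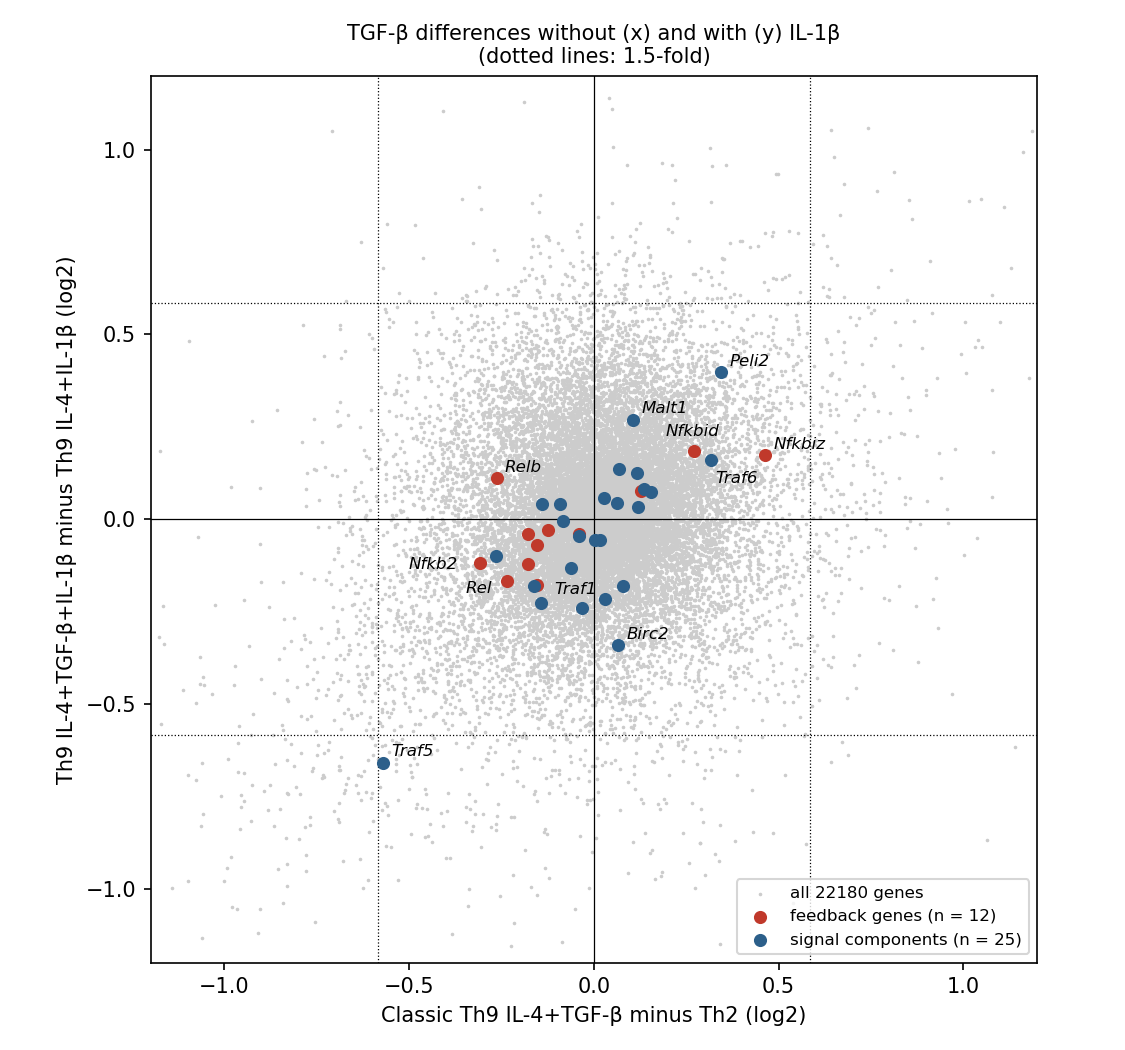
Log2 difference with TGF-β without IL-1β (x axis) and with IL-1β (y axis) for the 12 feedback genes (red), the 25 signal components (blue) and all 22180 genes (grey; 77 lie beyond the axes), with dotted lines at 1.5-fold. *Traf5* is alone among members at the lower left, and *Peli2* is the highest on the y axis.

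Th2 and Th1 cells, the lineages that served as controls, differed in more members than the IL-1β or TGF-β pairs. No member was at least 1.5-fold higher in Th2 cells (0 of 37, against 3.29% of all genes), and 6 of 37 were lower, against 2.55%. These were *Bcl3* (-0.98), *Myd88* (-0.92), *Traf1* (-0.78), *Nfkbie* (-0.77), *Nfkbid* (-0.77) and *Peli2* (-0.65). They include a nuclear coactivator, 2 IκB genes, the adaptor of the IL-1 receptor and a TNF receptor adaptor. *Irak2* (-0.52) and *Nfkbib* (-0.47) were lower by less. The median was -0.25 for feedback genes, -0.11 for components and -0.01 for all genes, and 9 of 37 members were above 0, against 47.7% of all genes. *Tnip1* had the largest positive difference, 0.29.

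The other pathway genes had a median of 0.10. *Il1r1*, the signalling receptor of IL-1, was higher in Th2 cells by 2.33, at 7.71 in Th2 and 5.38 in Th1 cells, the Th1 value being just under the dim mark of that array. *Traf4* (-0.90) and *Otulin* (-0.60), the deubiquitinase of linear chains, were lower. Of the 29 targets, a list chosen with these data known, 2 were at least 1.5-fold higher (*Il2* and *Cd83*), against 3.29% of all genes. The *Il2* value of Th1 cells (4.63) lay below the dim mark of that array (5.39). Lower by that much were 10 of 29, against 2.55%, among them *Cxcl10* (-4.01), *Tnf* (-1.34), *Irf1* (-1.30) and *Icam1* (-1.29). B cell genes had a median of 0.42 (2 of 10 at least 1.5-fold higher, 1 lower), plasma cell genes of 1.32 (4 of 6 higher, 0 lower) and T cell genes of 0.00 (0 of 9 either way). Myeloid and dendritic cell genes had a median of 0.12 (5 of 13 higher, among them *Itgax* at 1.68 and *Lyz2* at 1.64, and 2 lower), mast cell and basophil genes of 0.03 (1 of 10 higher, 2 lower) and NK and CD8 T cell genes of 0.32 (3 of 6 higher, 1 lower). The part of these shifts in the member values was not tested.

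**Figure D5:**
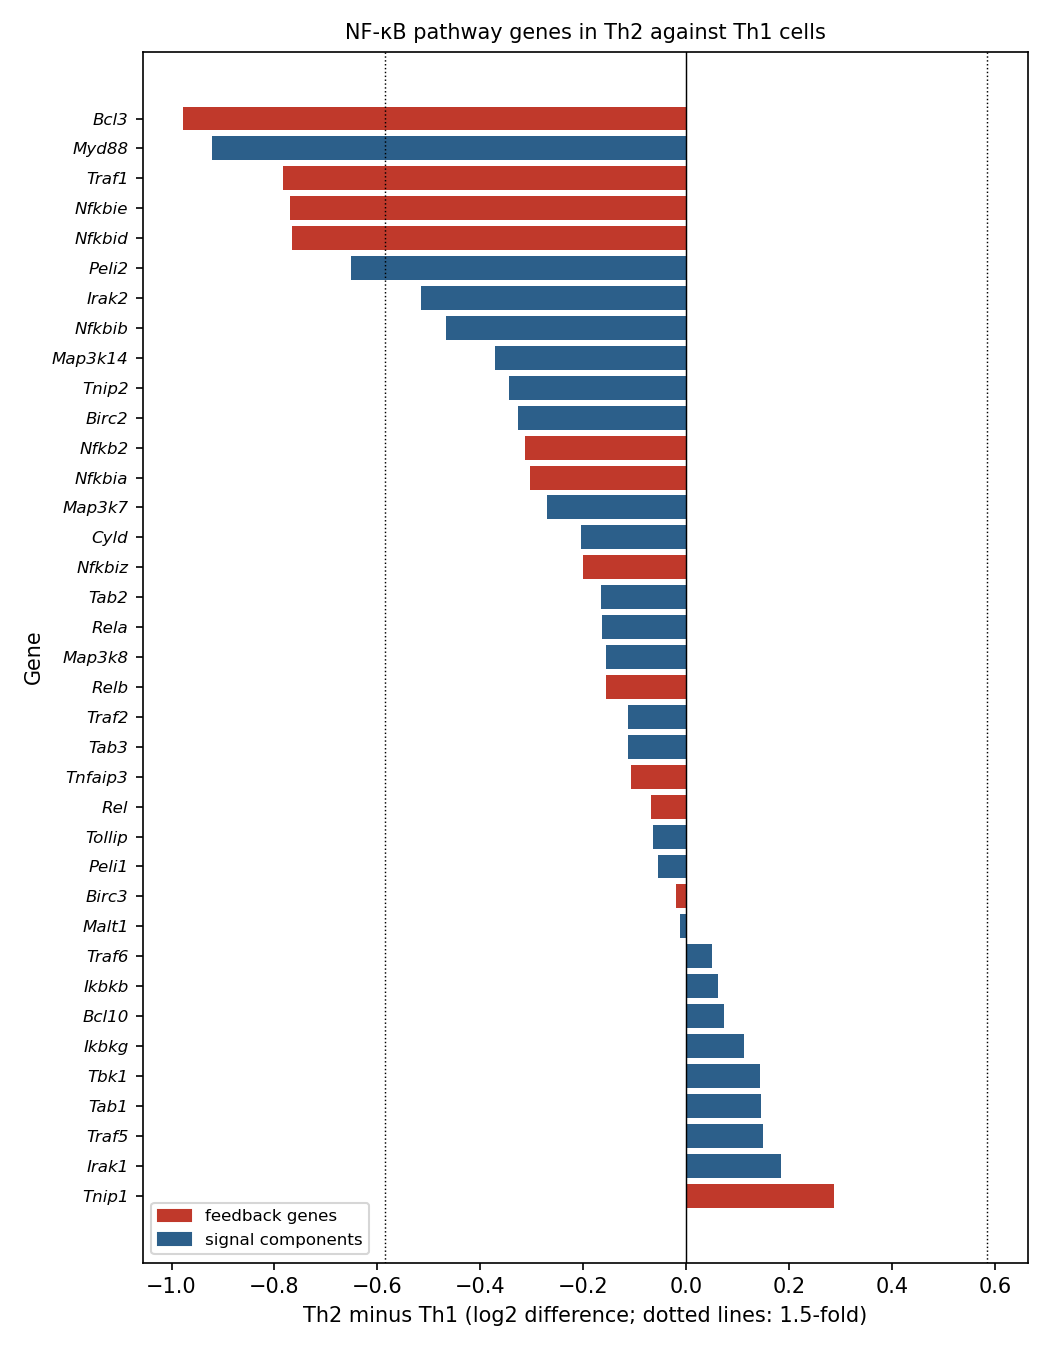
Log2 difference of Th2 minus Th1 cells for the 37 measured members (bars; red, feedback genes; blue, signal components), with dotted lines at 1.5-fold. The 6 members past the left line run from *Bcl3* at -0.98 to *Peli2* at -0.65, and none passes the right one.

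IL-1β Th9 cells differed from Th1 cells in fewer members. None of 37 was at least 1.5-fold higher, against 3.93% of all genes, and 2 of 37 were lower, *Peli2* (-0.96) and *Myd88* (-0.80), against 2.94%. *Nfkbie* (-0.57) and *Nfkbid* (-0.55) were just short of 1.5-fold. The feedback genes had a median of 0.02, with *Nfkb2* at 0.01, *Traf1* at -0.20 and *Tnfaip3* at 0.24, and both the median and the *Nfkb2* value changed sign with another scaling. B cell genes had a median of 0.13 (2 of 10 at least 1.5-fold higher, 1 lower), plasma cell genes of 1.47 (5 of 6 higher, 0 lower) and T cell genes of -0.28 (0 of 9 higher, 2 lower). Myeloid and dendritic cell genes had a median of 0.14 (5 of 13 higher, 0 lower), mast cell and basophil genes of 0.10 (1 of 10 higher, 1 lower) and NK and CD8 T cell genes of 0.36 (2 of 6 higher, 1 lower), and the part of these lists was not tested. *Tnip1* (0.48) had the largest positive difference of the members. The 29 targets, chosen with these data known, had a median of -0.15. Of them 6 were at least 1.5-fold higher, against 3.93% of all genes, and 5 lower, against 2.94%. Among the 6, *Il2* in Th1 cells and *Il6* in both arrays lay below the dim mark.

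By level, the median of the 12 feedback genes was 9.55 in combined Th9, 9.53 in IL-1β Th9, 9.08 in classic Th9, 9.10 in Th2 and 9.50 in Th1 cells. Both IL-1β cultures and Th1 cells thus lay above classic Th9 and Th2 cells. In 9 of 12 feedback genes and 14 of 37 members, classic Th9 and Th2 cells both lay below the other 3 arrays, against 10.2% of all genes, a count made after the values had been seen. The exceptions were *Nfkbiz*, *Nfkbid* and *Tnip1*. The components had medians of 8.92, 8.96, 8.89, 8.93 and 9.13, highest in Th1 cells. Of all 37 members 14 were highest in Th1 cells, 10 of them components, against 25.5% of all genes.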

How the data were processed

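RNA of 5 cultures, 1 per condition, was hybridized to Affymetrix Mouse Gene 2.0 ST arrays. The authors summarized probes by RMA in Affymetrix Expression Console (versions and genome build not given in the sources used here), which corrects background, quantile-normalizes and gives log2 values, and these deposited log2 values were used as they were. RMA assumes like distributions over arrays and so removes any overall shift. Of 41345 transcript clusters, none with a missing value, 23521 carried 1 symbol in the platform annotation, 1820 carried several and were not used. A gene was the cluster with the highest mean, which gave 22180 genes. All 37 Entrez IDs of measured members were found in the RefSeq table with the same symbol.

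Differences of log2 values were taken between single arrays, with no test. Members were counted at 1.5-fold beside the share of all genes. The alternatives were centring each array on its median or 75th percentile, a second quantile normalization, log2(linear value + 16), the mean over clusters, only genes with a mean above the median of all clusters, and thresholds of 2-fold and of 0.32 on the log2 scale. By rule, values in every array were given for the subunits and for members with a range of at least 1.5-fold over the arrays, others by range and counts, and up to 4 genes of the other pathway and target lists with the largest differences. The members and lists were chosen with earlier results of these data known. Raw intensities were not analysed here. Scripts were tested on simulated data. Python 3.11.15 with numpy 2.4.6, pandas 2.3.3 and matplotlib 3.10.9 was used.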

Additional observations from a re-analysis of the deposited data

How the results depend on the processing

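With 1 array per condition, the number of arrays limits every value, and leaving out an array removes its condition. No paired analysis was possible because each condition has 1 array. Of 96 counts of members recomputed under settings other than the threshold, 91 stayed within 1.5 times the count given, and 126 of 126 medians of the gene groups (largest move 0.11) and 546 of 546 differences of named genes (largest move 0.18) moved by less than the SD of the olfactory receptor transcripts in that comparison. That SD, 0.246 to 0.299, was larger than most of these medians, so passing this bar says little about their stability. The mean over clusters and the restriction to brighter genes could not move these results. Each measured member had 1 cluster, and none fell below the brightness cut. The part of the checks made under these settings was thus fixed in advance and says nothing about stability. With moves of at most 0.18, no difference of 1.5-fold or more could change sign. Among smaller ones, 11 of the medians and 6 of the named genes' differences did, all at most 0.07 in size. Over the settings, the feedback median ran from -0.09 to 0.02 for IL-1β Th9 minus Th1 cells, where *Nfkb2* ran from -0.10 to 0.01, and from -0.04 to 0.04 for combined Th9 minus IL-1β Th9 cells. Among the counts, the exceptions were these. With each array centred on its 75th percentile, 1 member in place of 3 was higher in IL-1β Th9 than in classic Th9 cells, 4 in place of 2 were lower in IL-1β Th9 than in Th1 cells, and 0 in place of 1 was lower in combined Th9 than in IL-1β Th9 cells. The last was also 0 after a second quantile normalization, and *Peli2* was no longer counted between the IL-1β Th9 and classic Th9 arrays after log2(linear value + 16), which gave 0 lower members in place of 1. The 75th percentile moved the median of all genes by -0.11 between IL-1β Th9 and Th1 cells and by at most 0.08 elsewhere. The cause was not tested.

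At 2-fold, 0 members were counted in any comparison, so that the counts of 3 higher and 1 lower (IL-1β Th9 against classic Th9), 1 lower (combined Th9 against IL-1β Th9), 6 lower (Th2 against Th1) and 2 lower (IL-1β Th9 against Th1) all became 0. The shares of all genes at 2-fold were 0.609%, 0.374%, 0.293%, 0.803% and 0.821% in the same order. At a threshold of 0.32 on the log2 scale, counts of the 37 members are given with the share of all genes in brackets. In IL-1β Th9 against classic Th9 cells, 12 were higher (9.31%) and 3 lower (11.7%). Higher were 6 in IL-1β Th9 than in Th2 cells (6.84%) and 6 in combined Th9 than in classic Th9 cells (5.35%). In classic Th9 against Th2 cells, 2 were higher (7.07%) and 1 lower (7.06%). In combined Th9 against IL-1β Th9 cells, 1 was higher (8.76%) and 2 lower (7.6%). In Th2 against Th1 cells, 11 were lower (9.15%). In IL-1β Th9 against Th1 cells, 1 was higher (10.7%) and 8 lower (11.9%).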
